A study of Mus musculus with 4 samples.

Results

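B2m, H2-K1 and Psmb8 are genes of the MHC class I presentation pathway, and their levels were followed in inactivated feeder fibroblasts exposed to FGF2. The 3 members make up 3 of the 8131 genes that could be named on the array and 3 of the 3484 named genes with a probe bright enough to be tested. H2-K1 (NCBI gene 14972) and Psmb8 (NCBI gene 16913) each had 1 probe whose identifier carries the NCBI gene number. No probe of B2m (NCBI gene 12010) is named in that way. The gene was read instead from 1 probe named by the RefSeq transcript NM_009735.2, which belongs to B2m in the annotation of GRCm38.p6. In that build B2m lies at chr2:122147687-122153082, H2-K1 at chr17:33996012-34000619 and Psmb8 at chr17:34198195-34201454. Where in each transcript the probe lies was not analysed here.

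The cells were CF1 mouse embryonic fibroblasts, which serve as the feeder layer for human embryonic stem cells. Every group, the controls included, was treated with mitomycin C, a DNA cross-linker that stops division, seeded on a gelatine coating (55000 cells per square centimetre) and moved to serum replacement medium for human embryonic stem cells. The 4 groups differed in the FGF2 added for 24 h, which was 0, 4, 13 or 40 ng/ml. The control was measured on 3 arrays of biological replicates and each dose on 1 array, so a value at a single dose has no replicate of its own. Where the 3 FGF2 arrays are taken as 1 group, their SD spans different doses as well as the spread between samples. CF1 is an outbred stock, and whether the probe of H2-K1, a highly polymorphic gene, matches the alleles carried by these cells was not tested.

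MHC class I molecules display peptides from inside the cell to cytotoxic T cells. Each consists of a polymorphic heavy chain, such as that encoded by H2-K1, held together with beta2-microglobulin, the invariant light chain encoded by B2m. The peptides are cut largely by the proteasome. Under interferon its catalytic subunits are exchanged for those of the immunoproteasome, of which Psmb8, also called LMP7, takes the place of the constitutive subunit Psmb5. Fibroblasts carry class I but normally little class II, and interferons raise class I and immunoproteasome genes in part through the interferon regulatory factors.

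The promoters of the 3 members are printed because the 3 genes were lower together, and because class I promoters are textbook examples of regulation by shared elements. Each runs from 250 bases before to 50 bases from the RefSeq start on, in GRCm38.p6, 5′ to 3′ on the strand of the gene. Capitals mark matches on either strand to AANNGAAA (the core bound by interferon regulatory factors), the consensus kappa B site bound by NF-kappa B, TGACG (a cyclic AMP response core) and CCAAT. The motifs were chosen with these sequences and the biology of class I promoters known. The annotation lists 2 starts for H2-K1, of which the first listed is shown.
B2m, chr2:122147437-122147736, plus strand: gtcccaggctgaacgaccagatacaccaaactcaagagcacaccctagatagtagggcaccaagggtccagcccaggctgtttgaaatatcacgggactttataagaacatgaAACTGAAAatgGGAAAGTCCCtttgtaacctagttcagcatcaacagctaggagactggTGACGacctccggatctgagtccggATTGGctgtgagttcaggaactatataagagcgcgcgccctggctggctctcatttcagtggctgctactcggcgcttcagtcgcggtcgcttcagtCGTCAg
H2-K1, chr17:34000298-34000597, minus strand: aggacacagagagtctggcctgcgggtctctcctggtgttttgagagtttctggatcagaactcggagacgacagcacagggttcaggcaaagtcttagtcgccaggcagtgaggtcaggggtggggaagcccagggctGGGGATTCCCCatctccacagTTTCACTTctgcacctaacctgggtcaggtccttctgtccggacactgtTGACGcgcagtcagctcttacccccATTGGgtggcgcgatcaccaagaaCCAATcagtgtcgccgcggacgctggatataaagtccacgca
Psmb8, chr17:34197945-34198244, plus strand: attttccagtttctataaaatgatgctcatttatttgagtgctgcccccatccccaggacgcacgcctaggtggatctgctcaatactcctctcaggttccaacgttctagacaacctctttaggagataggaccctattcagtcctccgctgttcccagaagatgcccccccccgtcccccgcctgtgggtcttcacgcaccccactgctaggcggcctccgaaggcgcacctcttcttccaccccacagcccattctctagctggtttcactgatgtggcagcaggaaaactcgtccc

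The windows of B2m and H2-K1 both held all 4 motifs, and that of Psmb8 held none of them. In B2m the core for interferon regulatory factors reads AACTGAAA on the plus strand and is followed after a gap of a few bases by the kappa B match GGAAAGTCCC on the minus strand. In H2-K1 the order is reversed, with the overlapping kappa B matches GGGGATTCCC and GGGATTCCCC, each on both strands, before TTTCACTT, the core read on the other strand. Of 27025 promoters of the same length, 24.2% hold the core for interferon regulatory factors, 4.35% the kappa B consensus, 21% TGACG and 37.9% CCAAT, and 0.873% hold both of the first pair. With a looser kappa B pattern that was tried first, and that allows any base in the middle, the shares were 20.5% and 3.73%. A match describes letters in this window only, and no binding was measured.

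Measured with FGF2, all 3 members were lower than in the untreated cells. B2m fell 1.47-fold, H2-K1 2.53-fold and Psmb8 1.15-fold over the 3 doses together, and for each of the 3 every FGF2 array lay below every control array. Of all 11763 probes tested, 36.8% passed the threshold in this comparison and 18.4% were lower, and 25.6% had every FGF2 array below every control array. A fall of this kind was therefore common on these arrays. Of the calls 50.1% were higher, against 37.9% after scaling of the arrays to the same median, and all 3 members kept their direction under that scaling. The sizes of the Psmb8 and H2-K1 changes depended on the background correction, as described with Psmb8. Without further correction the log2 change of H2-K1 was -0.97, against -1.34 with neqc. In bulk RNA, fewer cells that express a gene and less RNA per cell cannot be told apart.

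**Figure D1:**
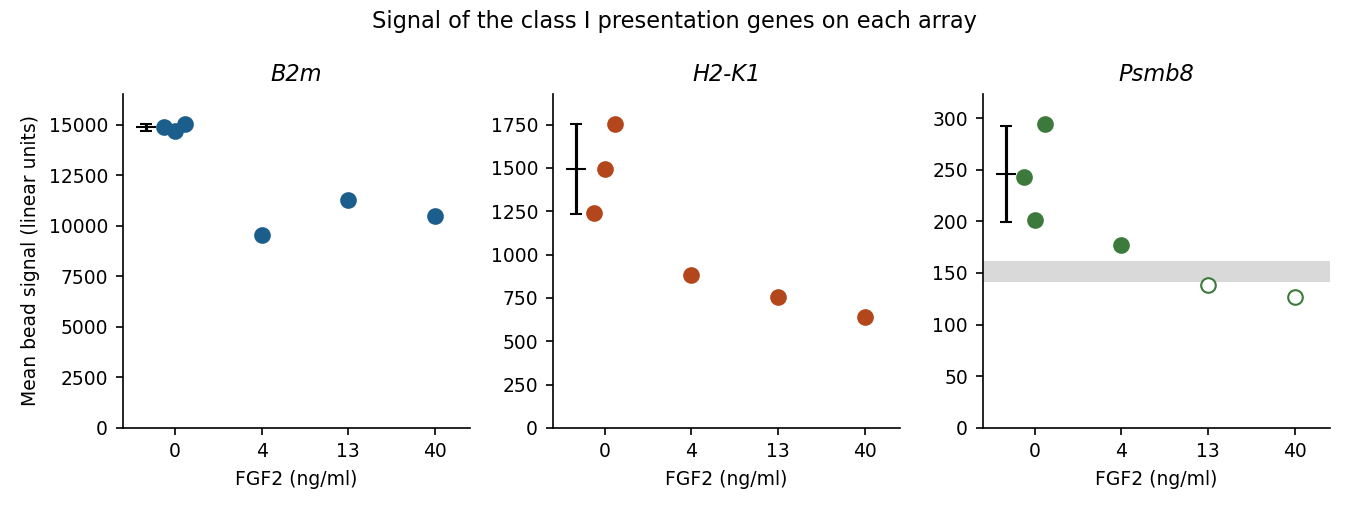
Mean bead signal of B2m, H2-K1 and Psmb8 (y axis, linear units from 0, before background correction and normalisation) on each of the 6 arrays, by FGF2 dose (x axis, ng/ml). Each circle is 1 array, filled where the probe was detected; the black mark with its bar is the control mean ± SD (n = 3), and the grey band is the range over arrays of the lowest detected signal (142.4 to 160.3). All FGF2 arrays sit below all controls, and Psmb8 lies under the band at 13 and 40 ng/ml.

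The light chain, B2m, had the closest controls of the 3 members. Its signal was 14908, 14689 and 15039 on control replicates 1, 2 and 3, and 9537, 11253 and 10479 with 4, 13 and 40 ng/ml. The lowest control exceeded the highest FGF2 array 1.31-fold, so the groups were clearly apart. After background correction and quantile normalisation the log2 signals were 13.87, 13.88 and 13.80 in the controls, and 13.20, 13.34 and 13.33 at 4, 13 and 40 ng/ml. The control mean was 13.85 ± 0.04 (SD, n = 3) and the FGF2 mean 13.29 ± 0.08 (SD, n = 3), a log2 change of -0.56 ± 0.05 (SE of the fit) with an adjusted p = 0.00134 in limma. The lowest level was thus at the lowest dose.

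The heavy chain, H2-K1, had the largest fall of the 3 over all doses in each background correction run, though not at each dose: with normexp at an offset of 16 the log2 change at 13 ng/ml was -1.12 for H2-K1 and -1.19 for Psmb8. Its signal was 1237, 1492 and 1754 on control replicates 1, 2 and 3, and 879.7, 755.4 and 638.5 at 4, 13 and 40 ng/ml. Each FGF2 array was below the one at the dose before it. The controls spread widely, with a standard deviation of 17.3% of their mean against 1.19% for B2m, but the lowest of them still exceeded the highest FGF2 array 1.41-fold. On the log2 scale the controls stood at 9.90, 10.29 and 10.35 and the FGF2 arrays at 9.19, 8.72 and 8.62. The log2 change over all doses was -1.34 ± 0.19 (SE, n = 3 per side, adjusted p = 0.00496 in limma), from a control mean of 10.18 ± 0.24 (SD) to 8.84 ± 0.30 (SD). It ranked 152 from the lowest among the 11763 probes, while B2m ranked 652. H2-K1 belongs to a family of near-identical genes, so its probe may also bind transcripts of its relatives.

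The immunoproteasome subunit Psmb8 was dim. Its signal was 242.8, 201.5 and 294.3 on control replicates 1, 2 and 3, and 176.7, 138.1 and 126.2 at 4, 13 and 40 ng/ml. It was detected on the controls and at 4 ng/ml, with detection scores of 1 and 0.999, but not at 13 and 40 ng/ml, where the scores of 0.962 and 0.955 lay under the limit of 0.99. On the log2 scale after neqc the controls stood at 7.47, 7.37 and 7.53 and the FGF2 arrays at 7.32, 7.23 and 7.23. The gap between the lowest control and the highest FGF2 array was 0.06 log2 units, narrower than the control SD of 0.08. The log2 change over all doses was -0.20 ± 0.05 (SE, n = 3 per side), with an adjusted p = 0.0285.

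The size of that change depended on the background correction, and the cause was not tested. Without further correction the log2 change of Psmb8 was -0.67, with normexp at an offset of 50 it was -0.77 and at an offset of 16 it was -0.99, with adjusted p values of 0.00218, 0.00196 and 0.00245. H2-K1 moved the other way, from -1.34 with neqc to -0.97, -0.99 and -1.03, so that with normexp at an offset of 16 the changes of H2-K1 and Psmb8 were of similar size. B2m stayed at -0.54 to -0.55 in these 3 settings. The call of Psmb8 ended without control replicate 1 (adjusted p = 0.0884), control replicate 3 (0.0710), the 13 ng/ml array (0.0906) or the 40 ng/ml array (0.0970), and without the filter on dim probes (0.0722).

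The spread among the beads of a probe within 1 array was small against the differences. As the file headers name it, the bead standard deviation was 367.6 to 660.8 for B2m, 25.6 to 63.3 for H2-K1 and 8.5 to 12.6 for Psmb8. For H2-K1 and Psmb8 the controls differed from each other by more than this, with standard deviations between arrays of 258.2 and 46.5. For B2m the standard deviation between control arrays, 176.8, was below that within an array. The spread within an array is that of single beads, whereas each array value is a mean over beads. These are unlike measures, and the precision of the bead mean was not computed.

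Taken dose by dose, B2m was lower at each of the 3 doses, H2-K1 passed at 13 and 40 ng/ml, and Psmb8 passed at none in the principal setting. These comparisons set 1 array against the 3 controls and take their spread from the controls alone. Of all probes, 13.9% passed with 4 ng/ml (6.57% lower and 7.31% higher), 25.7% with 13 ng/ml (12.4% lower and 13.3% higher) and 24.8% with 40 ng/ml (11.8% lower and 13% higher). Of those called with 40 ng/ml 52.5% were higher, against 40.4% after scaling to the same median. B2m changed by -0.65, -0.51 and -0.52 on the log2 scale at 4, 13 and 40 ng/ml (SE 0.05 at each, adjusted p = 0.00969, 0.00866 and 0.00870 in limma). Without control replicate 1 it no longer passed at any dose (0.0659, 0.0524 and 0.0523).

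H2-K1 changed by -0.99 at 4 ng/ml, which missed the threshold (SE 0.21, adjusted p = 0.0624), by -1.46 at 13 ng/ml (adjusted p = 0.0188) and by -1.56 at 40 ng/ml (adjusted p = 0.0169). The value at 4 ng/ml passed without further background correction (log2 -0.73, adjusted p = 0.00504) and in 4 other settings. The calls at the higher doses ended without control replicate 2 (0.0576 and 0.0535) and without the filter on dim probes (0.0600 and 0.0535).

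Psmb8 changed by -0.14, -0.23 and -0.23 (SE 0.07, adjusted p = 0.306, 0.107 and 0.108). After neqc, with the undetected arrays set at their detection limit, Psmb8 was at least 1.15-fold lower at 13 ng/ml. At 40 ng/ml it was at least 1.14-fold lower. Before correction the mean control signal was 246.2, and these limits were 153.9 at 13 ng/ml and 142.4 at 40 ng/ml. Without further background correction the changes at these doses were -0.80 at both and passed (adjusted p = 0.00228 and 0.00223).

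**Figure D2:**
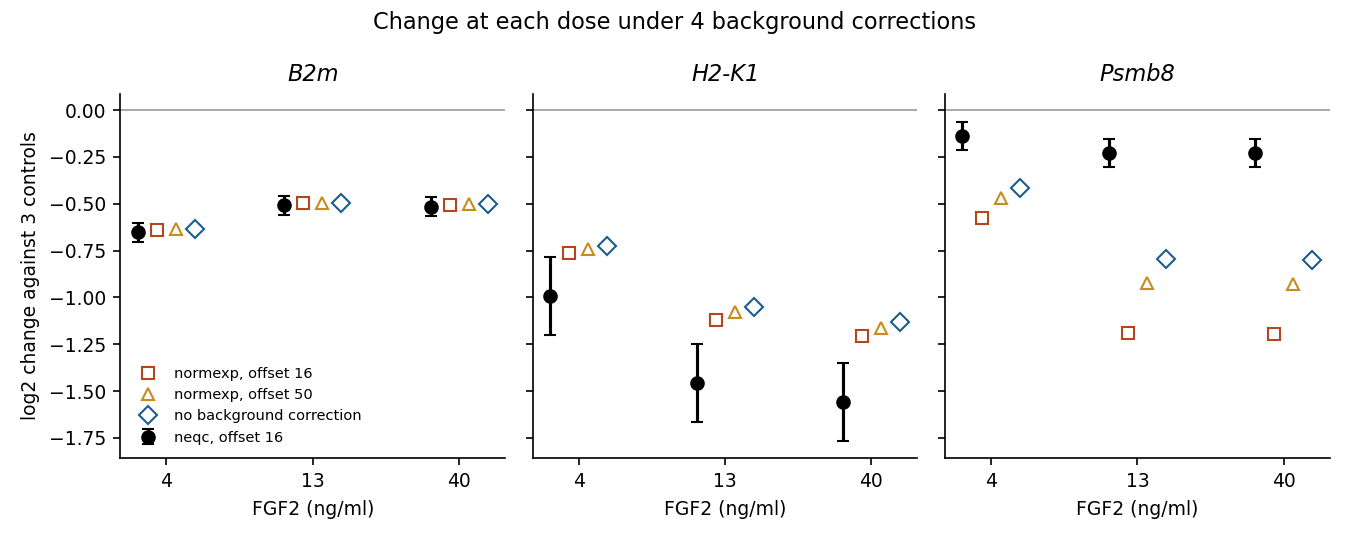
Log2 change of each member at 4, 13 and 40 ng/ml FGF2 (x axis) against the mean of the 3 controls (y axis), under 4 background corrections. Black circles carry the SE of the fit with neqc, and open symbols are normexp at offsets of 16 and 50 and no correction. The symbols coincide for B2m, lie higher without neqc for H2-K1 and lower for Psmb8, where neqc gives -0.23 at 40 ng/ml and the others -0.80 to -1.20.

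Whether the members responded further above the lowest dose was asked by setting the 13 and 40 ng/ml arrays against the 4 ng/ml array. None of the 3 passed in limma, where 3.39% of all probes did (1.39% lower and 2.01% higher). Of these calls 59.1% were higher, against 49.1% after median scaling. For B2m the difference was 0.14 log2 units higher at the upper doses (95% interval 0.02 to 0.26, adjusted p = 0.204). H2-K1 was 0.51 lower (-0.51, interval -1.03 to 0.0041, adjusted p = 0.262), and Psmb8 had a difference of -0.09 (interval -0.27 to 0.09, adjusted p = 0.562). With no further correction and normexp at offsets of 50 and 16 that of Psmb8 was -0.38, -0.46 and -0.62, also without passing (adjusted p up to 0.151). The interval of H2-K1 reaches a further fall as large as that seen at 4 ng/ml. Between 13 and 40 ng/ml the arrays differed by -0.0064 for B2m and -0.10 for H2-K1, less than the control SD of each gene (0.04 and 0.24), and for Psmb8 both were undetected.

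A slope per log2 of dose among the FGF2 arrays passed for 0 of 11763 probes in limma (0%), although 1236 had an unadjusted p under 0.05. The slopes were 0.04 ± 0.02 for B2m, -0.17 ± 0.07 for H2-K1 and -0.03 ± 0.03 for Psmb8 (SE, adjusted p = 0.553, 0.514 and 0.769). Leaving out 1 array at a time moved the H2-K1 slope between -0.27 and -0.06, and that of Psmb8 between -0.05 and -0.00048. From high to low, the levels of B2m ran from the controls through 13 and 40 ng/ml, which differed by less than the control SD, to 4 ng/ml. Those of H2-K1 ran from the controls through 4 and 13 to 40 ng/ml, of which 13 and 40 ng/ml differed by less than the control SD. Psmb8 was below the controls at 4 ng/ml, and its undetected arrays have no order.

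Other class I heavy chains were lower as well, but not all of those detected. Of 25 listed class I and class I-like genes, 14 had a named probe and 6 were tested. Of these 4 fell, where 18.4% of all probes were lower, and 0 rose, with a median log2 change of -0.73 against 0.0050 over all probes. Beside H2-K1 these were the Qa region genes H2-Q2 (-0.97 ± 0.08, adjusted p = 0.00124) and H2-Q5 (-0.71 ± 0.11, 0.00597), and H2-T23 (-0.75 ± 0.05, 0.000792), which encodes the Qa-1 molecule that presents to NK cell receptors. H2-Q2 stood at 10.96, 11.11 and 11.28 in the controls and 10.16, 10.09 and 10.19 with 4, 13 and 40 ng/ml. The T region genes H2-T10 (-0.0036, adjusted p = 0.954) and H2-T22 (-0.06, 0.214) did not pass, and their groups overlapped. H2-D1, the other classical heavy chain with a named probe, was undetected on all 6 arrays, with a mean signal of 119.9 in the controls. As close relatives, these genes may share transcripts on each other's probes, and their changes are not independent. The count and median of the heavy chains include the member H2-K1. This list and those below were chosen with earlier results of these data known, so their counts are no independent support.

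In the group that joins the light chain to the peptide loading machinery, 8 of 16 listed genes had a named probe and 4 were tested. Of these 2 fell, where 18.4% of all probes were lower. Beside B2m it was tapasin, by an amount that depended on the background correction. Tapbp, which bridges the heavy chain to the peptide transporter, changed by -0.13 ± 0.03 (adjusted p = 0.0177), from 7.43, 7.39 and 7.45 to 7.32, 7.26 and 7.29. With no further correction and normexp at offsets of 50 and 16 its log2 change was -0.45, -0.51 and -0.64 (adjusted p = 0.00171, 0.00140 and 0.00135). The chaperone Hspa5 (0.12, adjusted p = 0.202) and the protease Ide (0.05, 0.269) did not pass. The median of the 4 was -0.04, against 0.0050 over all probes. The call of Tapbp ended without any of control replicates 1 and 3 or the 13 and 40 ng/ml arrays (adjusted p up to 0.0634). Tap1 and Tap2, which form the peptide transporter, had no named probe and are not analysed here.

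The tested genes of the immunoproteasome and its activator were lower, and the constitutive subunits Psmb5 and Psmb6 were not. All 4 tested genes of the first group fell, of 6 listed and 4 with a named probe, with a median of -0.64. Over all probes 18.4% were lower. The 4 include the member Psmb8, which met the detection filter through the controls. Where detection on all 6 arrays was required, 3 were tested and 3 fell, with a median of -0.68. Psmb10, the interferon-induced counterpart of Psmb7, fell 2.19-fold (log2 -1.13 ± 0.17, adjusted p = 0.00586). Its log2 signal was 9.07, 8.92 and 9.48 in the controls and 8.25, 7.88 and 7.94 at 4, 13 and 40 ng/ml. Psme1 and Psme2 encode the subunits of PA28, a ring that caps the proteasome. Psme1 changed by -0.68 ± 0.08 (adjusted p = 0.00253), and a second probe of it by -0.62 (0.0369). Psme2 changed by -0.60 ± 0.15 (0.0272). If either upper dose or the filter on dim probes was left out, 2 of the 4 passed, since Psmb8 and Psme2 no longer did, and without control replicate 1 it was 3.

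Among 9 listed genes of the constitutive core and its other activators, 4 were tested, 2 rose and 0 fell, with a median of 0.22. Over all probes 18.4% were higher. Psmb5, whose place Psmb8 takes in the immunoproteasome, rose 1.33-fold (log2 0.41 ± 0.10, adjusted p = 0.0266). Its log2 signal was 9.99, 9.68 and 9.83 in the controls and 10.09, 10.31 and 10.32 with 4, 13 and 40 ng/ml. Psmb5 was above every control at each dose, while Psmb8 was below every control. Psmb3, which is not among the exchanged catalytic subunits and is shared by both forms, changed by 0.20 ± 0.04 (adjusted p = 0.0103 in limma). Psmb6 (0.04, 0.623) and the activator Psme4 (0.23, 0.146) did not pass. Of the tested subunits that are exchanged, Psmb5 alone rose. A difference between the 2 proteasome groups was not tested as such. The calls of Psmb5 and Psme2 each ended without control replicate 3 (0.0737 and 0.0517), the 13 ng/ml array (0.0847 and 0.0841), the 40 ng/ml array (0.0913 and 0.0921) or the filter (0.0820 and 0.0867). That of Psmb5 also ended under median scaling (0.0941) and without control replicate 2 (0.0661), and that of Psmb3 with normexp at offsets of 50 and 16 (0.0595 and 0.0830).

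**Figure D3:**
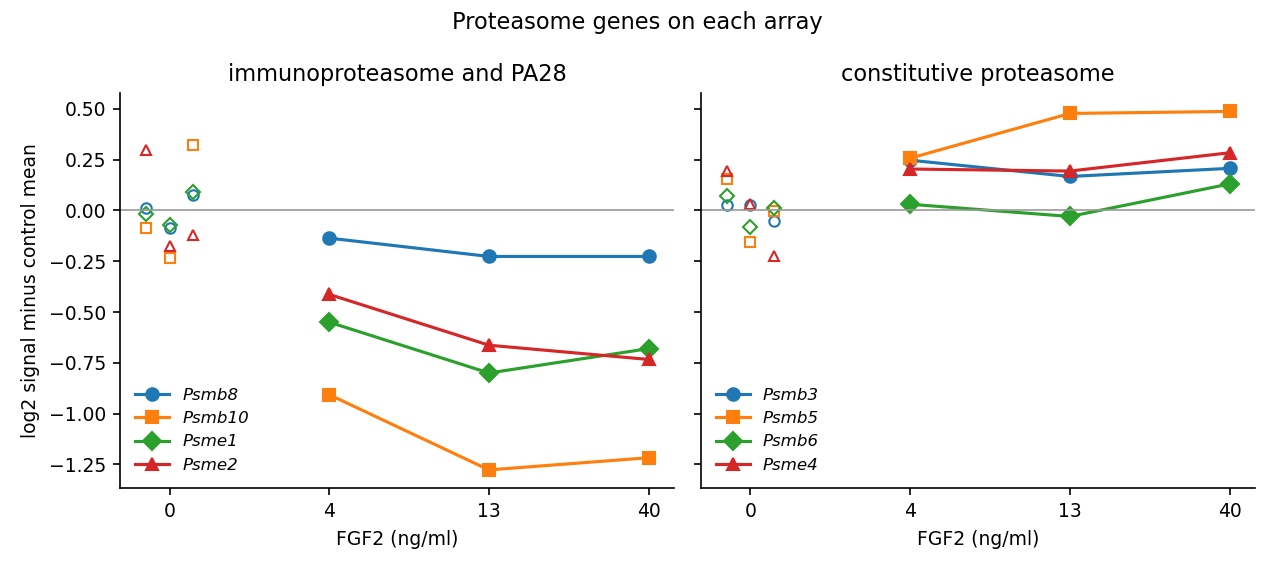
Log2 signal minus the control mean (y axis) of 4 immunoproteasome and PA28 genes (left) and 4 genes of the constitutive proteasome and its activators (right), by FGF2 dose (x axis, ng/ml). Open symbols are the 3 control arrays of each gene and joined filled symbols the single array at each dose. The 4 genes on the left are below their controls at every dose, and Psmb5 on the right is above its controls.

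Among the transcription factors that act on class I promoters, Irf9 and Irf1 were lower. Of 16 listed regulators 10 had a named probe and 5 were tested, of which 2 fell, beside 18.4% of all probes, and 0 rose, with a median of -0.11. Irf9, which takes part in the type I interferon response, fell 2.36-fold (log2 -1.24 ± 0.16, adjusted p = 0.00376), and Irf1, which binds class I and immunoproteasome promoters, changed by -0.43 ± 0.07 (0.00716). With no further correction and normexp at offsets of 50 and 16 the log2 change of Irf1 was -0.68, -0.73 and -0.82, and with the last Irf9 reached -1.94. Rfxap (0.02, adjusted p = 0.568) and Rfxank (-0.0059, 0.903), subunits of the RFX complex, and Nfyb (-0.11, 0.261), a subunit of the CCAAT-binding factor, did not pass.

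Of the interferon receptors and their signalling genes, 4 of 11 were tested. Of these 0 passed in limma over all doses, where 36.8% of all probes did. Ifngr2, a chain of the interferon-gamma receptor, was 0.79 log2 units higher (adjusted p = 0.0784), and stood at 10.32, 10.11 and 10.59 in the controls and 10.52, 11.41 and 11.46 at 4, 13 and 40 ng/ml. Taken singly, 13 and 40 ng/ml gave it higher (1.07 and 1.12, adjusted p = 0.0357 and 0.0334), Socs1 lower at both (-0.20 and -0.17, 0.0286 and 0.0452) and Jak2 lower at 13 ng/ml alone (-0.23, 0.0254). The inhibitor Socs1 stood at -0.14 (0.0643), and the kinases Jak2 (-0.08, 0.425) and Tyk2 (0.0045, 0.931) did not pass over all doses. Of all probes, 25.7% passed with 13 ng/ml and 24.8% with 40 ng/ml. At an unadjusted p under 0.05, 5530 of the 11763 probes would pass over all doses. With no further correction or normexp, Socs1 passed (adjusted p = 0.0220 to 0.0244), as did Ifngr2 (0.0177 to 0.0237). Socs1 passed under median scaling too (0.0418). Without the 4 ng/ml array both passed as well (0.00562 and 0.00428).

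**Figure D4:**
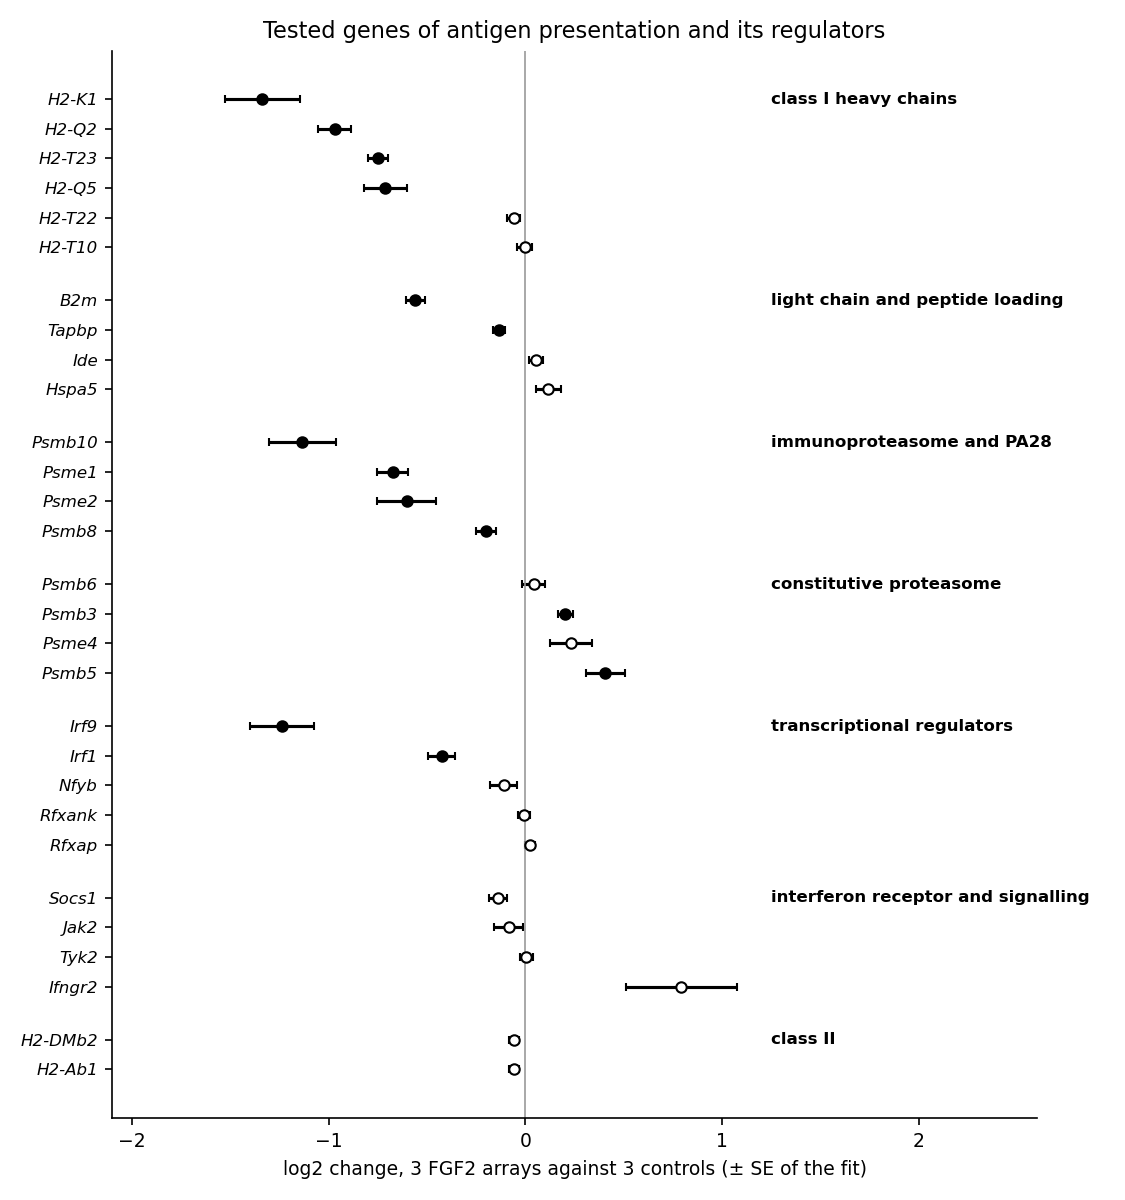
Log2 change of the 3 FGF2 arrays against the 3 controls (x axis) for the tested genes of antigen presentation and its regulators (y axis, grouped by role). Bars are the SE of the fit, and filled circles passed the threshold. Filled circles to the left of 0 are 4 class I heavy chains, B2m, Tapbp, all 4 immunoproteasome and PA28 genes, Irf9 and Irf1. Those to the right are Psmb5 and Psmb3.

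No control stood highest throughout. Of 29 tested genes of the lists 12 were highest on control replicate 1, 4 on replicate 2 and 13 on replicate 3. Irf9 was at 9.02 on replicate 3, against 8.52 and 8.44 on control replicates 1 and 2. Of the other pathway genes called lower, H2-K1, H2-Q2, H2-Q5, Psmb8, Psmb10, Psme1 and Tapbp were also highest on replicate 3. B2m and H2-T23 were lowest on it, and Psme2 and Irf1 were highest on replicate 1. Most of the pathway genes called lower were thus highest on replicate 3. Without control replicate 3 the log2 changes were -1.25 for H2-K1 (adjusted p = 0.0203), -0.16 for Psmb8 (0.0710) and -0.58 for B2m (0.00578). Then 4 of 6 heavy chains and 1 of 4 light chain and loading genes fell. So did 2 of 4 immunoproteasome and PA28 genes and 2 of 5 regulators. Of the constitutive list 1 gene rose, Psmb3. Over all probes 3194 of 11763 passed, 1528 of them higher. The part that this array's state played in the results was not tested beyond these values.

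The genes whose profiles lay nearest to each member were sought among the 3483 other named genes tested, by the root mean square difference over the 6 arrays of log2 signals centred on the control mean. Nearest to B2m were Sel1l, an adaptor of protein degradation in the endoplasmic reticulum (difference 0.07), Arhgap23 (0.08), the noncoding RNA Gas5 (0.08), Tnip1, an inhibitor of NF-kappa B signalling (0.09), and Bfar (0.09). They changed by -0.49 to -0.58 over all doses, and a likeness to B2m follows from how they were chosen. Nearest to H2-K1 were Rnd3 (0.12), Igfbp3 (0.13), the transcription factor Nfix (0.14), Uba7 (0.14), which activates the interferon-induced modifier ISG15, and the matrix protein Thbs2 (0.15). Rnd3 changed by -0.97, -1.38 and -1.49 at 4, 13 and 40 ng/ml, close to the values of H2-K1 by the same choice. Nearest to Psmb8 were Cdc42ep2, Tollip, Hyal1, Ubtf and Samhd1, at differences of 0.02 to 0.03, with changes of -0.18 to -0.21 over all doses. These differences were taken after neqc alone, and Psmb8 was undetected at 13 and 40 ng/ml. With no further correction and with normexp the log2 change of Psmb8 was -0.67 to -0.99, and its nearest genes were not sought there. Of the 5 nearest genes of each member, none belongs to the lists used here.

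Markers of the labelled cell type were present, and those of leukocytes nearly absent. Of 12 fibroblast markers all 6 with a named probe were detected in the controls, among them Col1a1 and Col1a2. Their summed signal was 32063 to 38992 in the controls and 19367 to 23225 with FGF2. Col1a1 (log2 -2.12, adjusted p = 0.000664 in limma), Col1a2 (-2.30, 0.00177) and Col3a1 (-1.47, 0.0120) fell. Postn was undetected with FGF2 and at least 1.08-fold lower on the neqc scale, with a mean signal of 208.1 in the controls and 123.9 with FGF2. It entered the test through the controls alone, so its p value is not given. Dcn was 0.19 higher without passing (0.0623) and a second probe of it passed (0.35, 0.0361), and S100a4 stood at -0.03 (0.841). Of 20 leukocyte markers 6 had a named probe, and Ptprc, Cd3e, Itgam, Csf1r and Cd68 were undetected on every array. The exception was the lysozyme gene Lyz2, at 8.05, 8.13 and 8.04 in the controls and 7.70, 7.63 and 7.70 with FGF2 (log2 -0.40, adjusted p = 0.00147). The summed signal of the leukocyte probes was 984.7 to 1056 in the controls and 795.7 to 871.1 with FGF2. Within it Lyz2 had a mean signal of 483.9 in the controls and 326.3 with FGF2, and the other probes were undetected. The part of these sums in the fall of class I genes was not tested. Of the endothelial markers 1 of 3 with a named probe was detected (summed signal 506.7 to 565.8 against 422.8 to 512.8), and of the epithelial markers 2 of 4 (494.4 to 544.1 against 566.5 to 584.9). Among the latter Krt18, a keratin, was undetected in the controls and detected on all FGF2 arrays (mean signal 144.9 and 224.0). It entered the test through the FGF2 arrays alone, so its p value is not given. For the class II list, 5 of 12 genes had a named probe and 2 were tested. H2-Ab1 changed by -0.06 without passing (adjusted p = 0.158). H2-DMb2, undetected with FGF2, was at least 1.03-fold lower on the neqc scale. It entered the test through the controls alone, so its p values are not given. Cd74, the invariant chain, was undetected on all arrays. With normexp at offsets of 50 and 16 H2-Ab1 passed (adjusted p = 0.0432 and 0.0353), as it did with a trended prior (0.0433).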

How the data were processed

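Per the labels' protocols, 300 ng of total RNA per sample was amplified by transcription in vitro for 6 h and read on one-colour (Cy3) bead arrays. The authors deposited, for each of 6 arrays and 46116 probes, a mean signal (intensity, linear scale), a bead standard deviation in the same unit, and a detection score, a fraction between 0 and 1 that ranks the probe among the negative controls. These came from BeadStudio 1.0, per the submitters' processing notes. The deposited value table, also an intensity with unstated scaling (Pearson r = 1 with the array signals across probes), was used as an alternative. Its column medians were 254.9 for the control and 276.8 to 284.5 for the doses.

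Signals were corrected and quantile-normalised with neqc in limma 3.58.1 (R 4.3.3), with an offset of 16, and put on the log2 scale; neqc inferred the negative controls' spread from the detection scores. The 11763 probes with a score of at least 0.99 on at least 3 of 6 arrays were tested with lmFit and eBayes, two-sided, with Benjamini-Hochberg adjustment and a threshold of 0.05. The single array of a dose was taken to vary as the controls do. The numbers in probe identifiers were read as NCBI gene numbers, which is an inference, and matched to RefSeq annotation of GRCm38.p6. Of several probes of a gene the one with the highest mean signal was used. The text names the members, each tested gene of the pathway lists and the 5 nearest genes to each member. Members and lists were chosen with earlier results of these data known. Depth was similar, with median signals of 102.5 to 113.6 and 11195 to 11698 probes detected per array, and the number of arrays limits the precision. Slides and hybridisation days are not given in the sources used here. One gene is not reported here.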

Additional observations from a re-analysis of the deposited data

How the results depend on the processing

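The fall over all doses kept its direction and call for B2m (log2 -0.58 to -0.51) and H2-K1 (-1.51 to -0.97) in each alternative run, and its direction for Psmb8, which missed the threshold without the filter on dim probes (-0.20, adjusted p = 0.0722). For Psmb8 the values with no further background correction, normexp at offsets of 50 and 16 and a trended prior all passed, at 13 ng/ml with -0.80, -0.92, -1.19 and -0.23, and at 40 ng/ml with -0.80, -0.93, -1.20 and -0.23. In the same settings H2-K1 at 4 ng/ml passed with -0.73, -0.74, -0.76 and -0.99, and without the filter it missed at 13 ng/ml (-1.46, adjusted p = 0.0600) and 40 ng/ml (-1.56, 0.0535). In these 4 settings 2728, 2681, 2483 and 2605 probes were called at 4 ng/ml, and 922 with median scaling, in place of 1633. The slope called 52, 49, 5 and 71 in place of 0. For 13 and 40 against 4 ng/ml the count was 606 with no further correction, 228 with median scaling and 634 with a trended prior, in place of 399. In the authors' value table, with no test, B2m changed by -0.59, -0.43 and -0.36 at 4, 13 and 40 ng/ml, H2-K1 by -0.77, -1.11 and -1.20, and Psmb8 by -0.86 at 4 ng/ml. Leaving out 1 array at a time gave 2598 to 4899 probes over all doses, 307 to 1387 at 4 ng/ml, 1271 to 2800 at 13 ng/ml, 1243 to 2762 at 40 ng/ml, 90 to 351 for the upper doses against 4 ng/ml, and 0 to 97 for the slope. For members over all doses it gave -0.24 to -0.16 (Psmb8). At 4, 13 and 40 ng/ml it gave B2m -0.68 to -0.64, -0.53 to -0.49 and -0.54 to -0.50, and H2-K1 -1.13 to -0.91, -1.60 to -1.37 and -1.70 to -1.48. The B2m slope ranged from -0.0040 to 0.084, changing sign without the 4 ng/ml array. The causes were not tested. Psmb8 was not detected at the upper doses.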
